A study of Mus musculus with 2 samples.

Results

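The genes described here are 55 genes of BMP and TGF-beta signalling in the developing mouse face, taken as a fixed list of symbols from the 43346 Ensembl gene rows of each library. They comprise 13 BMP and GDF ligands, 3 TGF-beta ligands, 3 activin and Nodal ligands, 6 type I receptors, 5 type II receptors with the coreceptor betaglycan, 8 Smads, 9 secreted or membrane antagonists and modulators, 4 latent TGF-beta binding proteins and 4 Id target genes. All 55 symbols were found, each in 1 row. They were measured in 2 total RNA-seq libraries of facial prominence from B6NCrl embryos at 15.5 days, with no treatment and no second group. Replicate 1 pooled 78 embryos and replicate 2 pooled 62, both of mixed sex, and both carried the same donor label although they were labelled as biological replicates. Each library was made from 10 ng of RNA longer than 200 nucleotides. With 1 group of 2 libraries there is no condition to test, so levels, their order and their spread are described without p-values.

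Ligands of this superfamily are secreted dimers that bring type I and type II serine/threonine kinase receptors together on the cell surface. BMP-type receptors then phosphorylate Smad1, Smad5 and Smad9, TGF-beta and activin receptors phosphorylate Smad2 and Smad3, and both classes enter the nucleus with Smad4 and switch on targets, among them the Id genes in the case of BMP. In the embryonic face the BMP branch takes part in patterning the jaws, teeth and bone, and the TGF-beta branch in palate closure and in matrix production.

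Levels are deposited TPM values (transcripts scaled to a fixed total per library), which take transcript length into account, so genes can be compared with each other. Paired values in TPM are those of replicate 1 and replicate 2 in that order, and a mean is given with its SD over both libraries (n = 2). Expected counts on mouse genes summed to 36048449 and 36774501, and spike-in RNA took 2.91% and 4.59% of all counts. Markers of cranial mesenchyme, a main component of facial prominences, were detected in 9 of 9 cases with summed levels of 557.8 and 618.5 TPM, while 0 of 4 forebrain markers and 1 of 4 liver markers reached 1 TPM in both libraries. In such bulk tissue, fewer cells of a type and less RNA per cell cannot be told apart.

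Most genes of the list were expressed. A level of at least 1 TPM in both libraries was reached by 50 of the 55 genes, while 14052 of 21474 protein-coding genes (65.4%) reached it. The median over all 55 genes was 15.4 ± 0.141 TPM, beside 6.10 ± 0.138 TPM for all protein-coding genes. Among detected genes the medians were closer, at 18.3 ± 0.806 TPM for the 50 pathway genes and 18.0 ± 0.0424 TPM for the protein-coding genes. Of the 55 genes, 40 lay above the median of protein-coding genes and 6 above their 90th percentile, namely Fstl1, Id3, Id2, Sostdc1, Id1 and Twsg1. The 5 genes below the detection level were the ligand genes Gdf7, Gdf15 and Nodal, the BMP Smad gene Smad9 and the antagonist gene Grem1.

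**Figure D1:**
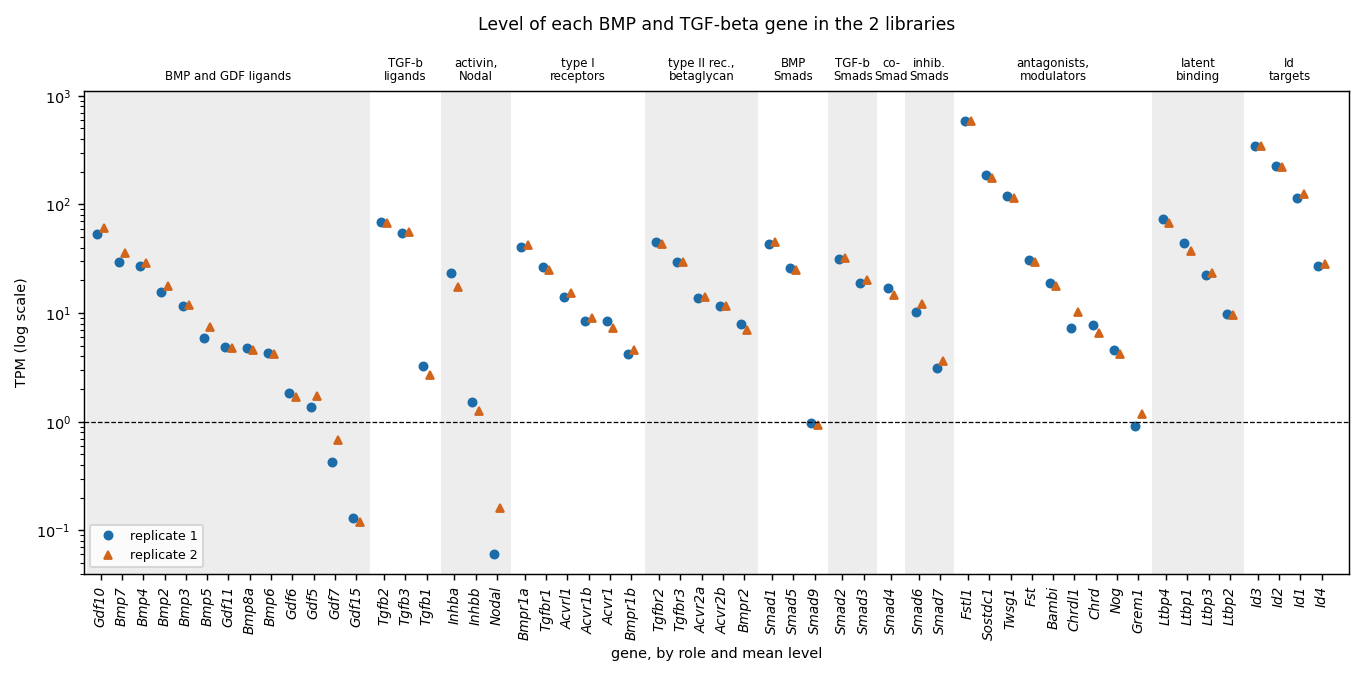
Level of each of the 55 genes in TPM (log scale) in replicate 1 (circles) and replicate 2 (triangles), grouped by role and ordered by mean level, with the detection level of 1 TPM as a dashed line. The antagonist gene Fstl1 and the Id genes Id3 and Id2 stand highest, Gdf15 and Nodal lowest, and the 2 points of most genes nearly coincide.

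Among the BMP and GDF ligands, 11 of 13 were detected, with a median of 4.85 ± 0.0778 TPM. Gdf10, also called BMP3b and related to the atypical ligand BMP3, was the highest at 53.9 and 61.2 TPM and took 86.7 ± 0.710% of the summed TPM of the 6 Gdf genes. Bmp7 and Bmp4, which act in tooth, jaw and skeletal development, followed at 29.7 and 35.8 TPM and at 26.9 and 29.0 TPM. In replicate 1 these 2 genes were not separated by the authors' credibility bounds of TPM, which describe the uncertainty of the authors' estimate within a library. Together they outweighed the other BMP genes, with 31.3 ± 1.63% for Bmp7 and 26.8 ± 0.724% for Bmp4 of the TPM summed over Bmp2 to Bmp8a.

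Bmp2, an osteogenic ligand gene, stood at 15.5 and 17.6 TPM, and Bmp3, whose product opposes osteogenic BMPs, at 11.7 and 11.8 TPM. Bmp5, known for its part in ear and skeletal shape in the mouse, had 5.85 and 7.39 TPM and was separated from its neighbours on both sides in the order of levels. Gdf11, a ligand of axial patterning, at 4.90 and 4.79 TPM, Bmp8a at 4.72 and 4.58 TPM and Bmp6 at 4.27 and 4.19 TPM formed a run in which no neighbours were separated. The joint and tendon ligand genes Gdf6 and Gdf5 were near the detection level at 1.82 and 1.70 TPM and at 1.37 and 1.71 TPM, and their order differed between the libraries. Gdf7, of the same subgroup, had 0.430 and 0.680 TPM, from 14 and 23 counts. Gdf15, a stress-induced ligand gene, had 4 counts in each library, or 0.130 and 0.120 TPM.

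The TGF-beta ligands stood higher, with a median of 55.2 ± 1.53 TPM, but unevenly. Tgfb2 had 68.8 and 67.6 TPM and Tgfb3, whose product is needed for fusion of the palate in the mouse, had 54.1 and 56.3 TPM. Tgfb1, the isoform best known from immune cells and blood vessels, had only 3.29 and 2.71 TPM. Tgfb3 thus exceeded Tgfb1 16.5-fold in replicate 1 and 20.8-fold in replicate 2, and Tgfb1 took 2.37 ± 0.329% of the summed TPM of this family. Of the activin and Nodal genes, Inhba, which encodes the subunit of activin A and is needed for tooth development in the mouse, had 23.4 and 17.4 TPM and took 93.6 ± 0.505% of the TPM of the activin subunit pair. Inhbb, the other subunit, had 1.51 and 1.26 TPM. Nodal, a ligand of the early embryo, had 3 and 8 counts, or 0.0600 and 0.160 TPM.

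The lead of Tgfb2 over Tgfb3 rested on transcripts that are not annotated as protein coding. At its locus on chr1:186622792-186705989 (GRCm38, minus strand), the full-length coding transcript Tgfb2-201 of 5116 nucleotides had 27.4 and 26.7 TPM, and the coding transcript Tgfb2-206 had 8.82 and 11.6 TPM. The retained-intron transcript Tgfb2-205, only 898 nucleotides long, was given 22.6 and 22.8 TPM. Transcripts that are not protein coding held 47.4% and 43.5% of the TPM of the gene but 12.5% and 11.4% of its counts, since TPM divides counts by length and these transcripts are short. On protein-coding transcripts alone Tgfb2 had 36.2 and 38.2 TPM, below Tgfb3, whose 1 annotated transcript is coding. The ratio of Tgfb2 to Tgfb3 was 1.27 and 1.20 on all transcripts, and 0.669 and 0.679 on coding ones, so the order turned in both libraries.

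The same comparison touched other genes. Non-coding transcripts held at least 10% of the TPM in both libraries in 6 genes, which besides Tgfb2 were Ltbp4 (32.7% and 25.3%), Bmp7 (26.6% and 25.2%), Fstl1 (24.6% and 26.9%), Tgfbr3 (20.8% and 23.2% on the retained-intron transcript Tgfbr3-204 alone) and Tgfb1 (13.1% and 26.2%). Their share of the counts was smaller, at 4.13% and 2.97% for Ltbp4, 8.21% and 7.69% for Bmp7 and 6.08% and 6.77% for Fstl1. For Tgfbr3 it was 5.77% and 7.04%, and for Tgfb1 4.13% and 8.16% of only 153 and 116 counts. For Bmp7 these reads lay on the retained-intron transcript Bmp7-202, and Bmp4 also had a retained-intron transcript. On coding transcripts of both genes alone, Bmp7 had 21.8 and 26.7 TPM and Bmp4 24.7 and 24.9 TPM. The ratio of Bmp7 to Bmp4 was then 0.882 in replicate 1 and 1.07 in replicate 2, so the libraries differed on which of these genes led. Fstl1 remained the highest of the antagonist genes on coding transcripts, at 446 and 431 TPM. Of the 50 detected genes, 32 had at least 2 annotated transcripts. In all 32 the leading transcript was protein coding, and in 31 the same transcript led in both libraries. The exception was Ltbp2, where Ltbp2-201 led in replicate 1 with 47.3% of the TPM and Ltbp2-202 in replicate 2 with 49.9%. Shares over all genes are not given for these transcript counts, so none of them is read as particular to the pathway.

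**Figure D2:**
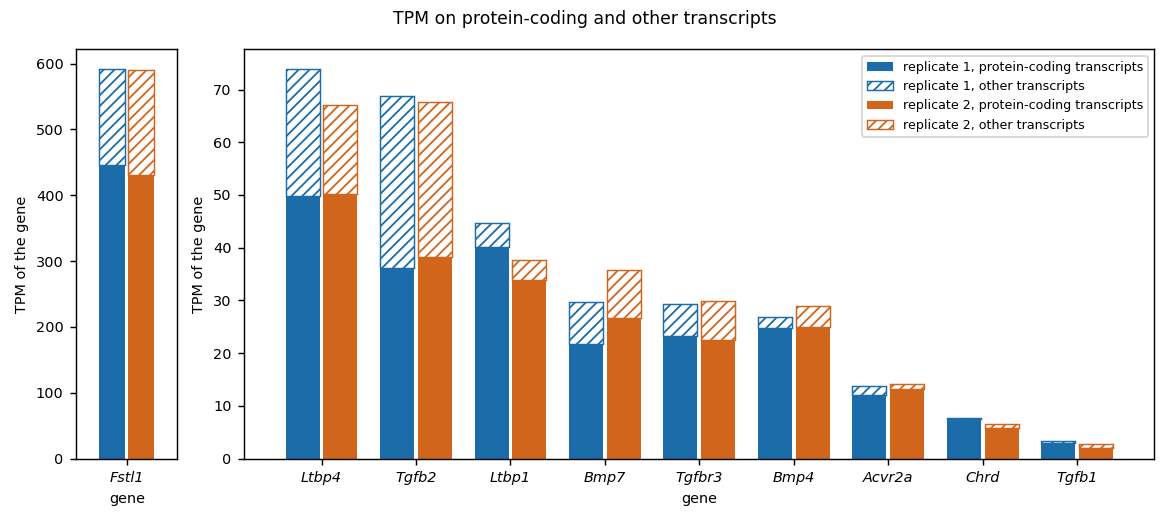
TPM of 10 genes split into protein-coding transcripts (filled) and other transcripts (hatched) for replicate 1 (blue) and replicate 2 (orange), for the genes in which other transcripts held at least 10% in either library; Fstl1 has an axis of its own. The hatched share of Tgfb2 is 47.4% and 43.5%, while in Ltbp1 it is 10.1% and 9.79%.

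All 11 receptor genes were detected. The type I receptors had a median of 11.7 ± 0.633 TPM and were led by Bmpr1a, the main BMP type I receptor of many embryonic tissues, at 40.9 and 42.3 TPM, with 40.4 ± 0.650% of the summed TPM of the 6 genes. Tgfbr1, the TGF-beta type I receptor gene, followed at 26.4 and 25.1 TPM. Acvrl1, a receptor gene of endothelial cells also called ALK1, had 14.0 and 15.3 TPM, and 6 of 6 endothelial markers were detected at 10.3 to 101 TPM. Acvr1b, the activin receptor ALK4, at 8.48 and 8.94 TPM, and Acvr1, the BMP receptor ALK2, at 8.39 and 7.25 TPM, were not separated in replicate 1. Bmpr1b, a BMP receptor gene of cartilage condensations, was lowest at 4.20 and 4.58 TPM. Bmpr1a thus exceeded Bmpr1b 9.74-fold and 9.24-fold.

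On the type II side Tgfbr2, the receptor that binds TGF-beta first, had 44.9 and 43.7 TPM, or 57.2 ± 0.183% of the summed TPM of the 4 kinase genes. Acvr2a and Acvr2b, which serve activins and several BMPs, had 13.7 and 14.1 TPM and 11.7 and 11.7 TPM, and were not separated in replicate 1. Bmpr2, the type II receptor that is selective for BMPs, was the lowest at 7.97 and 6.93 TPM, and Tgfbr2 exceeded it 5.63-fold and 6.30-fold. Tgfbr3 (betaglycan), a coreceptor that presents TGF-beta2 to the signalling receptors, had 29.4 and 29.8 TPM. The leading gene of the type I receptors was therefore a BMP receptor and that of the type II receptors a TGF-beta receptor.

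Of the Smads, 7 of 8 were detected. Smad1 had 42.8 and 45.4 TPM and Smad5 25.7 and 24.9 TPM, whereas Smad9, the third BMP Smad, had 0.980 and 0.940 TPM, just under the detection level, and 1.36 ± 0.0631% of the summed TPM of the BMP Smads. Smad2 and Smad3, which carry TGF-beta and activin signals, had 31.8 and 32.2 TPM and 18.9 and 20.0 TPM. The medians of the BMP Smads (25.3 ± 0.587 TPM) and of the TGF-beta Smads (25.7 ± 0.537 TPM) lay within 1 SD of each other, though the former is the level of Smad5. The summed levels cover unlike numbers of genes. They were 69.53 and 71.2 TPM over the 3 BMP Smads and 50.62 and 52.14 TPM over the 2 TGF-beta Smads. Smad4, the partner of both classes, had 17.0 and 14.7 TPM, less than Smad1, Smad2, Smad3 and Smad5. Smad4 and Smad3 were not separated by the credibility bounds in replicate 1. The inhibitory Smad genes, themselves induced by the pathway, were lower, with Smad6, which acts mainly on BMP signals, at 10.3 and 12.2 TPM and Smad7, which blocks both branches, at 3.13 and 3.65 TPM. The ratio of Smad6 to Smad7 was 3.29 and 3.35.

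The secreted antagonists and modulators spanned the widest range of any role, with 8 of 9 detected and means between 1.05 and 591 TPM. Fstl1, which encodes a secreted follistatin-like glycoprotein of mesenchyme that can bind BMPs, had 592 and 590.1 TPM, lay at the 99.2nd percentile of protein-coding genes and took 61.6 ± 0.644% of the summed TPM of this role. It lies on chr16:37776873-37836514 (GRCm38, plus strand). Sostdc1, an antagonist of BMP and Wnt signals made by tooth and hair placodes, had 188 and 176 TPM. Twsg1, which binds BMPs together with chordin, had 118 and 116 TPM. Sostdc1 took 18.9 ± 0.655% and Twsg1 12.2 ± 0.0408% of the summed level of the role.

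Fst, which encodes the activin-binding protein follistatin, had 30.9 and 29.7 TPM and exceeded its partner Inhba 1.32-fold and 1.71-fold. Bambi, which encodes a membrane pseudoreceptor without a kinase domain, had 18.9 and 17.8 TPM. The classical extracellular BMP antagonists were lower. Chrd (chordin) had 7.78 and 6.53 TPM and its relative Chrdl1 7.25 and 10.2 TPM, so the order of these neighbours differed between the libraries. Nog (noggin) had 4.53 and 4.17 TPM. Grem1 (gremlin) had 0.910 and 1.19 TPM and crossed the detection level in replicate 2 only.

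The latent TGF-beta binding proteins, which store the ligand in the matrix, were detected in 4 of 4 cases, at a median level of 31.9 ± 2.10 TPM. Ltbp4 had 73.9 and 67.1 TPM and Ltbp1 44.6 and 37.6 TPM. Ltbp3 had 22.2 and 23.3 TPM, and Ltbp2, which does not bind latent TGF-beta, 9.85 and 9.52 TPM. Both leading genes, Ltbp4 and Ltbp1, had coding TPM at more than 1 annotated start site. Starts were not measured directly, and the shares add up the deposited TPM of transcripts by their annotated starts. Protein-coding transcripts that begin at the downstream start of Ltbp1, on chr17 at 75178911, held 65.5 ± 1.92% of its coding TPM, and Ltbp1-201, which begins 173343 bases upstream at 75005568 and is the longest Ltbp1 transcript measured at 6671 nucleotides, held 34.5 ± 1.92%. For Ltbp4, on the minus strand of chr7, transcripts from the downstream start at 27333663, led by Ltbp4-205, held 83.1 ± 0.620%, and those from the upstream start at 27337692, 4029 bases away, held 16.9 ± 0.620%. In both genes and both libraries the downstream start held the larger share of the coding TPM.

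The sequences around these alternative starts are shown because the coding output of the 2 genes is divided between them. Each window runs from 250 bases before to 50 bases after the nearest start in the RefSeq annotation of GRCm38.p6, on the strand of the gene. Capitals mark GGCGCC, a GC-rich motif that BMP Smads can bind, and CAGAC or its complement GTCTG, the core of the Smad binding element. The windows are, in the order printed, chr17:75005279-75005578 (plus strand), chr17:75178531-75178830 (plus strand), chr7:27337563-27337862 (minus strand) and chr7:27333614-27333913 (minus strand). The annotated start of Ltbp1-202 lies 130 bases downstream of the RefSeq start and past the end of its window, while the other 3 windows hold the start of the transcript they are named for.
Ltbp1 start of Ltbp1-201: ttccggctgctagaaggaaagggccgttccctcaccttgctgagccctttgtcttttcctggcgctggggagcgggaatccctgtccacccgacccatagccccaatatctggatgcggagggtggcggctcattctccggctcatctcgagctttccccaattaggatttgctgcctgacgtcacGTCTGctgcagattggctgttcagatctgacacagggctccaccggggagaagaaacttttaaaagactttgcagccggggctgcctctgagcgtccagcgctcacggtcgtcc
Ltbp1 start of Ltbp1-202: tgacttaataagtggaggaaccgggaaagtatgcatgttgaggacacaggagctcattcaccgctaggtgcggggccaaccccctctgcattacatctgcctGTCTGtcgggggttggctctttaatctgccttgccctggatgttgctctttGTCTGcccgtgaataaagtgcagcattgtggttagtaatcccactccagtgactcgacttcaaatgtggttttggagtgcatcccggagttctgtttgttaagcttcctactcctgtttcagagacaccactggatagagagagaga
Ltbp4 start of Ltbp4-201: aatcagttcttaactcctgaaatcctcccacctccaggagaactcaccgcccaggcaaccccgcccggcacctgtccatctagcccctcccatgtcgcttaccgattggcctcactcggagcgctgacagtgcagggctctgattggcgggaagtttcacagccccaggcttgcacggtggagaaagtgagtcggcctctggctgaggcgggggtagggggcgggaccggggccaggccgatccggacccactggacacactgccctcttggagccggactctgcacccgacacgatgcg
Ltbp4 start of Ltbp4-205: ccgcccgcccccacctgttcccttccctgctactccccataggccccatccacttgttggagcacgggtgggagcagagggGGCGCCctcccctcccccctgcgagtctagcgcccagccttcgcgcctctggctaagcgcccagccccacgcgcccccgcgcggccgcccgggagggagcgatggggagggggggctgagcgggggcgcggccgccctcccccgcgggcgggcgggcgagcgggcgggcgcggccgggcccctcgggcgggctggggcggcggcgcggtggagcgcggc
The windows differ in base composition. The downstream start of Ltbp4 has a GC content of 81.3% and holds 1 GGCGCC, while the downstream start of Ltbp1 is lower in GC than the other 3 windows and holds CAGAC in the GTCTG form at 2 places. The upstream starts have 58.7% GC with 1 GTCTG in Ltbp1 and 64.3% GC with neither motif in Ltbp4. These letters describe the sequence and show no binding.

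The receptors Acvrl1, Acvr1 and Bmpr1b also had 2 coding start sites with at least 10% of their coding TPM. In Acvrl1 the downstream start, 5559 bases from the other, held 58.2 ± 0.0360% and the upstream start 41.8 ± 0.0360%. In Acvr1 the leading start held 81.8 ± 5.84% and in Bmpr1b 79.2 ± 8.75%. The second starts of these genes were near the detection level, at 1.11 and 1.31 TPM in Acvr1 and 0.74 and 0.66 TPM in Bmpr1b. Replicates agreed on the leading start in all 5 genes.

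The Id genes, known targets of BMP Smads that encode inhibitors of basic helix-loop-helix transcription factors, had the highest median of any role, 173 ± 2.61 TPM. Their summed level over 4 genes, 716.5 and 724.2 TPM, was below that of the 9 secreted antagonists and modulators, at 968.5 and 951.3 TPM. Id3 had 348 and 347 TPM, Id2 227 and 223 TPM, Id1 114 and 126 TPM and Id4 27.1 and 28.3 TPM. Every neighbour in this order was separated in both libraries, and Id3 exceeded Id4 12.8-fold and 12.3-fold. Id3 alone took 48.2 ± 0.449% of the summed TPM of the family. Most of the output of Id1 and Id3 came from 1 transcript, with 95.6% and 95.5% for Id1-201 and 94.7% and 94.8% for Id3-201.

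The RefSeq start windows of the 3 Id genes that the RefSeq table holds are shown since these genes are the targets of the BMP branch in the list. They lie at chr4:136143572-136143871 (plus strand) for Id3, chr12:25096043-25096342 (minus strand) for Id2 and chr13:48260866-48261165 (plus strand) for Id4, with capitals as above. Only the Id2 window holds the start of the transcript that was measured. The annotated start of Id3-201 lies 325 bases upstream of the RefSeq start, so the whole Id3 window lies downstream of that start. The annotated start of Id4-201 lies 112 bases downstream of the RefSeq start, past the end of the Id4 window.
Id3: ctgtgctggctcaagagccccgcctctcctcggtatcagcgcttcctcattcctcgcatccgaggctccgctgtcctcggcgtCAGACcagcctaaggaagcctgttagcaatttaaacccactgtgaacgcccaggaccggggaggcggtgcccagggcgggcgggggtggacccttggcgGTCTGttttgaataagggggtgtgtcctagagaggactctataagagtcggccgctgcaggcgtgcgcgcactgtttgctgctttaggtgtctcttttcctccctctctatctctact
Id2: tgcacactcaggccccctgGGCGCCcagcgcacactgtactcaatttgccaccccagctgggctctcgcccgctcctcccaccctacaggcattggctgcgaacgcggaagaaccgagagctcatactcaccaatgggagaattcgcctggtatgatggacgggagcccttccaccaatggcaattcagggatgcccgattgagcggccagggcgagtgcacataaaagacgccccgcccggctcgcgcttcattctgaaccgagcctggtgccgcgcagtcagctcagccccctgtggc
Id4: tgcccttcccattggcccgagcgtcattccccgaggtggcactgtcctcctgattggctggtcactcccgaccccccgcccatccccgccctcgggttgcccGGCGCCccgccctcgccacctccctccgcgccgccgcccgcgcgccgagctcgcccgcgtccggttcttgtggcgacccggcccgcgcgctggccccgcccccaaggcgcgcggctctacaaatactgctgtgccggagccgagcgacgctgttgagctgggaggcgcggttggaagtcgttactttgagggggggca
Id2 and Id4 each hold 1 GGCGCC, and Id3 holds the CAGAC motif at 2 places and no GGCGCC. Of the 55 genes, 38 had at least 1 window in the table, 47 windows in all. GGCGCC was present in 14 of these 47 windows (29.8%), against 3898 of 32851 windows of all genes (11.9%), and CAGAC on either strand in 22 (46.8%), against 49.6% of all windows. The windows of the pathway genes were also richer in G and C, with a median of 65.0% against 52.7%, and GGCGCC consists of these bases alone. The part of base composition in the difference was not tested.

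Within the roles, the order of levels was the same in both libraries for most genes. Of the neighbours, 35 of 43 pairs were separated by the credibility bounds in both libraries and had the same order in both. The 8 others were Bmp7 and Bmp4, Gdf11 and Bmp8a, Bmp8a and Bmp6, Gdf6 and Gdf5, Gdf7 and Gdf15, Acvr1b and Acvr1, Acvr2a and Acvr2b, and Chrdl1 and Chrd. The bounds cover the estimate within a library and not the spread between pools of embryos.

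Under TMM scaling, nearly all pathway genes stayed within 1.5-fold between the 2 pools. Each ratio sets replicate 2 over replicate 1 on the log2 scale, from expected counts with TMM scaling, for the 53 genes with at least 10 counts in both libraries. Only Gdf7 passed a 1.5-fold difference, at a log2 ratio of 0.59 from 14 and 23 counts, with a 95% interval from -0.36 to 1.73 that covers counting error alone. In the background 1664 of 18318 genes (9.08%) passed 1.5-fold. That share was not matched on counts, which had a median of 1440 for the pathway genes and 713 for all genes. The median absolute log2 ratio was 0.081 for the pathway genes, 0.118 for all genes and 0.102 for protein-coding genes within the same range of counts. The pathway genes were split evenly, with 27 higher and 26 lower in replicate 2. All genes under the same scaling were split likewise, with 9172 higher and 9146 lower.

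The share of pathway genes that differed by more than counting error was near that of all genes. The interval left out 0 in 21 of the 53 genes, 10 of them higher and 11 lower in replicate 2. It also left out 0 in 6290 of all 18318 genes (34.3%), with 16.8% higher and 17.5% lower in replicate 2. Among protein-coding genes within the same range of counts the share was 36.1%, with 18.7% higher and 17.4% lower. The genes named next are given for their values and not as particular to the pathway. Chrdl1 was higher in replicate 2 at a log2 ratio of 0.44 (0.30 to 0.58), as were Bmp5 at 0.34 (0.18 to 0.50) and Bmp7 at 0.29 (0.20 to 0.37). Inhba was lower in replicate 2 at -0.42 (-0.57 to -0.27), as were Tgfb1 at -0.45 (-0.82 to -0.10) and Ltbp1 at -0.24 (-0.29 to -0.18). At the other end the abundant genes Id3 and Smad2 had log2 ratios of 0.00 and Ltbp4 one of -0.01. These directions are relative to all genes. On spike-in totals, which move the median of all genes by -0.648, the same 3 higher genes lie at -0.21, -0.31 and -0.36. On those totals 52 of the 53 genes are lower in replicate 2, but the share of all genes is not given.

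**Figure D3:**
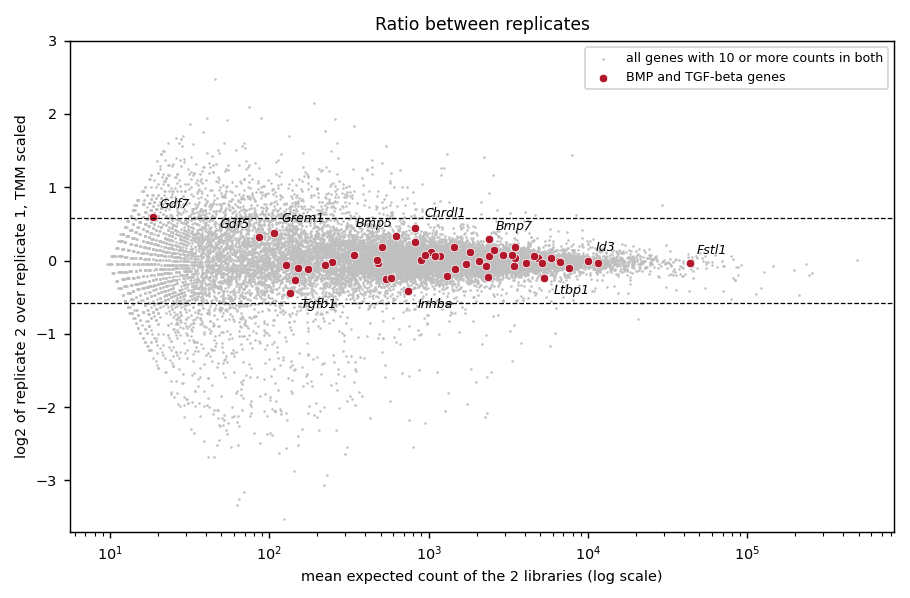
Log2 ratio of replicate 2 over replicate 1 (TMM scaled) against the mean expected count (log scale) for 18318 genes (grey) and the 53 pathway genes with enough counts (red), with 1.5-fold differences as dashed lines. Only Gdf7, at few counts, touches a dashed line, and the abundant genes Fstl1 and Id3 lie near 0; on spike-in totals the median of all genes is -0.648.

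Markers of some cell types differed between the pools. All 13 cartilage markers were higher in replicate 2 after TMM scaling, with a median log2 ratio of 0.62 and summed levels of 668.5 TPM in replicate 1 and 1032 TPM in replicate 2, and 8 of them passed 1.5-fold. All 10 skeletal muscle markers were lower in replicate 2 (median -0.41, 4547 and 3376 TPM), and so were all 4 erythroid markers (median -0.40, 10210 and 7652 TPM). All 4 neuron markers were higher in replicate 2 (median 0.28), though none passed 1.5-fold. In skeletal muscle only Ttn passed 1.5-fold, at -0.79. The other lists with every marker detected had medians nearer to 0. These were 0.16 for cranial mesenchyme, 0.02 for bone, 0.02 for suprabasal epidermis, -0.05 for macrophages, -0.07 for endothelium and -0.12 for basal epithelium. Of 8 bone markers 6 were higher in replicate 2, but Bglap was lower past 1.5-fold, at -0.96. In the forebrain and liver lists, mostly below detection, the medians were 0.01 and 0.96. The part of these differences in the ratios of Chrdl1, Bmp5, Bmp7, Inhba and Tgfb1 was not tested.

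**Figure D4:**
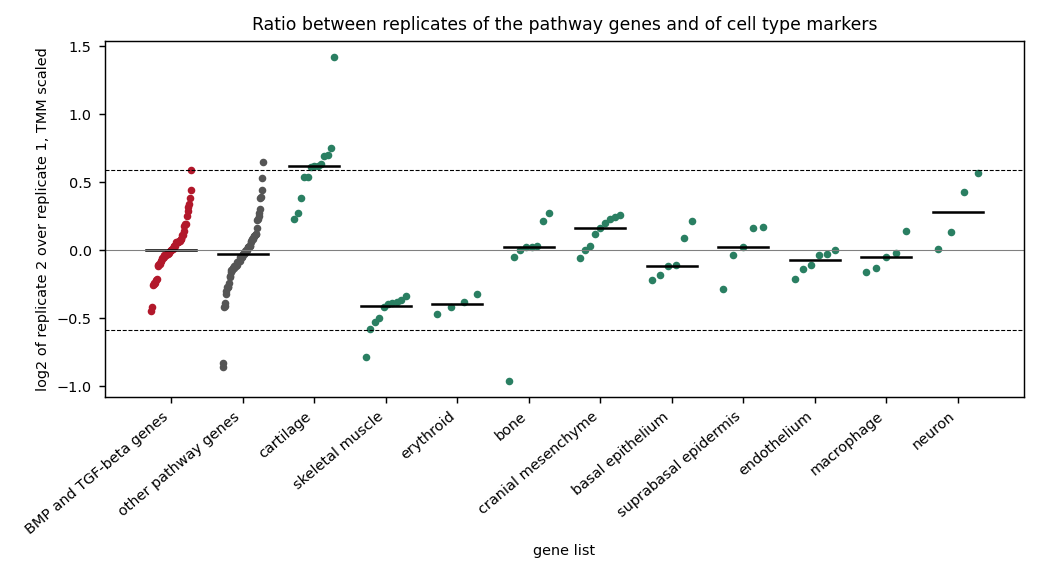
Log2 ratio of replicate 2 over replicate 1 (TMM scaled) for each pathway gene (red), each further pathway gene (dark grey) and the markers of 10 cell types (green), with the median of each list as a bar and 1.5-fold differences as dashed lines. The 13 cartilage markers lie above 0 and the skeletal muscle and erythroid markers below it, while the pathway genes are centred on 0; on spike-in totals the median of all genes is -0.648.

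A further list of 76 genes of the same pathway gave the setting of these levels. Of them 58 were detected, with a median of 10.9 TPM, and 3 of 67 with enough counts passed 1.5-fold between the pools, beside 9.08% of all genes. Further ligands were mostly at or near 0, with 4 of 13 detected. The highest were Inha, the inhibin alpha subunit, at 11.8 and 12.4 TPM, Mstn (myostatin), a ligand made by muscle, at 10.2 and 5.72 TPM, Lefty1 at 3.69 and 3.15 TPM, Gdf9 at 1.86 and 1.88 TPM and Bmp8b at a mean of 1.13 ± 0.255 TPM. Mstn was lower in replicate 2 at a log2 ratio of -0.83 (-1.02 to -0.65), and the muscle markers were lower at a median of -0.41. The part of muscle content in the ratio of Mstn was not tested. The other 2 genes past 1.5-fold, Cfc1 at 0.65 and Amhr2 at -0.86, both had under 1 TPM.

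Every one of the 11 intracellular regulators was detected. The receptor-binding immunophilin gene Fkbp1a led at 424 and 429 TPM, followed by the corepressor genes Tgif1 (56.5 and 58.6 TPM), Zeb2 (58.0 and 56.1 TPM) and Tgif2 (41.8 and 40.1 TPM) and the Smad phosphatase gene Ppm1a (21.7 and 21.2 TPM). Of 14 genes of ligand processing and activation, 13 were detected, led by the fibrillin gene Fbn2 (71.4 and 62.4 TPM), the integrin gene Itgav (59.7 and 54.0 TPM), the chordin-cleaving protease gene Bmp1 (55.3 and 56.3 TPM), Thbs1 (53.5 and 54.4 TPM) and the fibrillin gene Fbn1 (21.9 and 19.2 TPM). Coreceptors were led by Eng (endoglin), an endothelial partner of Acvrl1, at 69.3 and 65.9 TPM. Neo1, Rgmb, Rgma and Hfe2 of the neogenin and repulsive guidance family followed, between 9.78 and 22.1 TPM.

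Further modulators were headed by the small leucine-rich proteoglycan genes Dcn (574 and 553 TPM) and Bgn (246 and 248 TPM), which can bind TGF-beta in the matrix, and by Nbl1 (135 and 132 TPM), Htra1 (99.8 and 93.0 TPM) and Kcp (mean 21.6 ± 0.799 TPM). Of the TPM of Kcp, 23.4% and 23.2% lay on protein-coding transcripts, which left a mean of 5.03 ± 0.156 TPM, less than Fstl5 and Fstl3 had on theirs. Of 17 such genes 14 were detected. Among 12 further targets 11 were detected, led by the mesenchymal transcription factor gene Msx1 (145 and 158 TPM), Tgfbi (54.8 and 50.3 TPM), Dlx5 (37.3 and 43.6 TPM), Hey1 (32.8 and 33.7 TPM) and the bone regulator gene Sp7 (28.2 and 27.2 TPM).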

How the data were processed

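Total RNA of 2 libraries of facial prominence was used, which the labels give as biological replicates 1 and 2 of 1 group. Reads were placed on mouse assembly mm10 with annotation M4 and each library was quantified by itself, per the labels and the text deposited with them. Which aligner and quantification program were run, and with which strand setting, is not given in the sources used here. For genes and transcripts alike the authors deposited an expected count beside TPM and FPKM values, and the percent of a gene's TPM held by each transcript, per the file headers. Credibility bounds of TPM, deposited by the authors and treated here as a score, have no level stated in the tables and follow the posterior mean, so that an upper bound can lie just under the TPM itself. The total behind the deposited TPM includes 97 spike-ins and 26248 numbered sequences beside the genes. FPKM was not used.

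The 55 genes, their roles, the 76 further pathway genes and the marker lists were chosen with earlier results of these data known. Names and positions came from GENCODE M21 (GRCm38), which held 42462 of 43346 identifiers. Gdf1, listed among the further genes, was not analysed here, and a few genes are not reported here. Every one of the 55 genes is named, and of the further genes the 5 highest in each role and those past 1.5-fold. Expected counts were rounded to whole numbers, scaled by TMM factors of 0.989 and 1.01 (edgeR 4.0.16, R 4.3.3) and compared with a prior count of 2 where both libraries had 10 or more. Intervals of ratios are exact binomial 95% intervals (Python 3.11.15, scipy 1.17.1) and cover counting error alone. The ratio step was checked on simulated counts with 200 changed genes. Start sites within 500 bases were joined. Promoter windows of 300 bases came from the RefSeq table. Protein sequences were planned for comparison but not used here. No test was run, since there is 1 group, and the spread between the pools may hold technical parts. Alternatives covered detection level, TPM estimate, transcript class, scaling (DESeq2 1.42.0 size factors, totals, spike-ins), count filter, prior count, fold and single libraries.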

Additional observations from a re-analysis of the deposited data

How the results depend on the processing

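Detection of 50 genes ranged from 47 to 53 over the other detection rules and estimates, and leaving out a library gave 50 to 51. The median over the 55 genes was 15.8 TPM with the posterior mean, 15.1 TPM on protein-coding transcripts and 16.8 TPM when the total was set on genes alone. That last scaling gave medians of 5.28 TPM for BMP and GDF ligands, 60.3 for TGF-beta ligands, 12.7 for type I receptors, 15.2 for type II receptors, 27.6 for BMP Smads, 28.0 for TGF-beta Smads, 20.0 for antagonists, 34.8 for latent binding proteins and 188 for Id genes. The posterior mean gave 4.74 TPM for BMP and GDF ligands, 169 for Id genes and a share of 74.3% for Smad6. Coding transcripts alone gave medians of 37.2 TPM for TGF-beta ligands and 12.6 for type II receptors, and shares of 39.2% for Tgfb2, 26.1% for Bmp7, 58.4% for Tgfbr2, 54.4% for Fstl1, 42.0% for Ltbp4 and 46.8% for Id3. For the posterior mean the cause was not tested, and the other moves follow from which transcripts or totals are counted.

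Past 1.5-fold there was 1 gene with TMM, DESeq2 size factors or library totals, 36 on spike-in totals, all lower in replicate 2, 2 with no count filter, and 0 with at least 100 counts or at a fold of 2. Spike-in totals moved the median of all genes by -0.648, and counted relative to that shift, an alternative added after seeing the data, 1 gene passed. The share of all genes past 1.5-fold on spike-in totals is not given, so the 36 genes are not read as particular to the pathway. With n = 2, no difference between pools can be told from technical spread, and genes under 10 counts (Gdf15, Nodal) give no usable ratio. No paired analysis was possible because there was 1 group and no 2 groups shared replicate numbers.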

Other observations

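Some values may be shared with a gene on the opposite strand, since the strand setting of the counting is not given. Acvr2a, at 13.7 and 14.1 TPM, shared 446 exon bases with Orc4, which had 72.4 and 69.1 TPM. Bmp6, at 4.27 and 4.19 TPM, shared 224 bases with Txndc5, which had 262 and 261 TPM. Gdf5 shared 936 bases with Gm15557 and Bmp5 1878 bases with Gm26903, but both partners were under 1 TPM. How the counting divided such reads was not tested.

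Some of the genes lie close together. The receptor genes Acvrl1 and Acvr1b on chromosome 15 are 28731 bases apart and differed in level, at 14.0 and 15.3 TPM against 8.48 and 8.94 TPM. Smad3 and Smad6 on chromosome 9 are 195082 bases apart, at 18.9 and 20.0 TPM against 10.3 and 12.2 TPM. Gdf10 and Bmpr1a on chromosome 14 are 472751 bases apart, and each was the highest gene of its own family.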
